A study of Drosophila melanogaster with 30 samples.

Results

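The insulin, TOR and nutrient-sensing genes described here are 35 genes of Drosophila melanogaster that act as ligands, receptors, kinases, transcription factors and transporters in the response of the fly to food. Each was found through a probe set whose single gene symbol in the annotation of the array is one of the 35 names. All 35 were found, each with 1 probe set, among 13402 genes with such a probe set and 15309 probe sets in all. Their RNA was measured in adult virgin males of a field-derived laboratory stock on 30 Affymetrix arrays, 3 for each of 10 diet histories. A history is written by the food on which successive generations developed, with P for poor and R for rich, so that the last letter is the food of the flies measured. In the first generation (F0) the males had developed on poor food (P) or rich food (R). In the F1 generation they were poor-raised or rich-raised offspring of poor-raised parents (P-P, P-R) or of rich-raised parents (R-P, R-R). In the F2 generation they were poor-raised or rich-raised flies whose parents had all been rich-raised and whose grandparents had been poor-raised (P-R-P, P-R-R) or rich-raised (R-R-P, R-R-R). The sources used here do not give the recipes of the foods, how many flies went into a sample or in which batches arrays were run. Nothing in the labels tells whether the 3 replicates of a group are separate cultures, and the p-values therefore measure a spread that could be technical.

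Insulin-like peptides of the fly are secreted by brain neurons and other tissues. Those that act on the insulin receptor, InR, signal through its substrate Chico and the kinases Pdk1 and Akt. These kinases keep the transcription factor FOXO out of the nucleus. The relaxin-like peptide Ilp8 has another receptor, Lgr3. Amino acids and growth factors together set the activity of the kinase TOR, which promotes translation through S6k and eIF4E1 and holds back autophagy through Atg1. The fat body, the fly's counterpart of liver and adipose tissue, reports nutrition to the brain through secreted signals such as CCHa2, Upd2, the growth-blocking peptides and Dawdle, while adipokinetic hormone mobilises stored fat and sugar.

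The deposited values were made by GCRMA, a normalization that corrects background with the probe sequences, on a logarithmic scale whose base is not stated, and differences are given in log units, always as poor minus rich. If the values are natural logarithms, each difference would be 1.44 times larger on the log2 scale. The depth of an array has no count, and the number of arrays limits the precision. Across the 30 arrays 13 members stood above the median probe set of every array: ImpL2, Pdk1, Akt, foxo, gig, Sesn, S6k, REPTOR, Atg1, eIF4E1, CCHa2, Gbp1 and Gbp2. Another 9 stood above it on 0 arrays, namely Ilp5, Ilp8, Sdr, Lgr3, melt, Lst8, raptor, CCHa2-R and upd2, and 13 did so on some. Among these 13, Ilp7 and AkhR stood above it on the fewest, 2 arrays each. The array medians ran from 0.82 to 0.94. The residual SD between arrays of a group was 0.21 for the median member, against 0.20 for the median of all probe sets, and ran from 0.09 to 0.31 over the members.

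Markers of other tissues set 4 arrays apart. Among the lists of male tissues, testis (13 of 13 genes measured) averaged 2.01 on R-P replicate 2 and 2.0 on P-R-R replicate 2. The other 28 arrays lay higher, at 2.13 to 2.31. Accessory gland (8 of 8) averaged 5.73 and 5.66 on the same 2 arrays, against 5.65 to 6.04 on the other 28. The ovary and yolk list (12 of 12 genes measured) averaged 3.25 on R-P replicate 2 and 4.17 on P-R-R replicate 2, against 0.23 to 0.50 on the other 28. The cuticle list (8 of 8) averaged 1.75 and 1.81 on R-R replicates 1 and 3, against 2.83 to 4.67 on the 26 arrays outside these 4, and the fat body list (7 of 9) averaged 3.82 and 3.80 there, against 4.36 to 5.21. Of the 35 members, slif was the 1 that lay above the range of the other 28 arrays on both arrays with ovary transcripts, at 1.26 and 1.97, against 0.44 to 1.06. On 1 or both of them 7 members lay above that range and 2 below. The share of all probe sets was not counted by that rule. InR (1.35), S6k (3.47), rictor (1.45), Lst8 (0.80) and eIF4E1 (4.19) had their highest value on P-R-R replicate 2. Ilp2 (0.67) and Ilp5 (0.20) had their lowest there. Sesn was the 1 that lay below the range of the other arrays on both of those R-R arrays, at 5.76 and 5.74, against 5.78 to 6.57. On 1 or both of those R-R arrays 2 members lay above the range of the others and 4 below. Of all probe sets 6.51% lay outside the range of the others on both ovary arrays, and 1.12% did so on both of the R-R arrays. For some of the differences described below, values without these arrays are also given. Such values are not given for the other differences, which may also depend on these arrays.

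Own diet was the comparison in which members passed the test. Averaged over the 5 pairs of groups that shared an ancestry, Sesn rose and ImpL2 fell in poor-raised males, and the other 33 members did not pass. Sesn encodes sestrin, a stress-induced protein that restrains TOR complex 1, and ImpL2 encodes a secreted protein that binds insulin-like peptides and antagonises them. That is 2 of 35 members with an adjusted p under 0.05 in limma (linear models with shared variance estimates, Benjamini-Hochberg adjustment over all probe sets), beside 1.84% of all 15309 probe sets. At an unadjusted p under 0.05 there were 8 of 35 members (3 higher, 5 lower), beside 10.2% of all probe sets. The median difference was -0.03 over the 35 members and -0.01 over all probe sets, with 12 members above 0 and 23 below.

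Sesn had 5.99, 6.36 and 6.57 as the lowest, median and highest of the 15 poor-raised arrays, against 5.74, 6.13 and 6.39 on the 15 rich-raised arrays. The ranges overlap, and the poor-raised median lay close to the highest rich-raised value. The average difference was 0.31 ± 0.08 log units (SE; 95% interval 0.15 to 0.46; adjusted p = 0.0309 in limma), which is 1.24-fold if the values are log2 and 1.36-fold if they are natural logarithms. All 5 pairs had the same sign. Sesn had 6.36, 6.52 and 6.57 in R-P, against 5.76, 6.13 and 5.74 in R-R. In this pair, which holds the arrays with low cuticle transcripts, the groups did not overlap and the difference was the widest of the 5, at 0.61. F0 males had 6.49, 6.35 and 6.51 in P, against 6.32, 5.79 and 6.39 in R, a difference of 0.28 with overlap. With poor-raised parents the values were 6.37, 6.33 and 6.25 in P-P, against 5.87, 6.20 and 6.25 in P-R, so the lowest poor-raised array equalled the highest rich-raised one and the difference was 0.21. In the F2 generation Sesn had 6.12, 6.57 and 5.99 in R-R-P, against 5.78, 5.99 and 6.18 in R-R-R (0.24), and 6.57, 6.15 and 6.25 in P-R-P, against 5.88, 6.36 and 6.18 in P-R-R (0.18), and both pairs overlapped. In whole flies, fewer cells of a type and less RNA per cell cannot be told apart, for this gene and the others.

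ImpL2 had 1.11, 1.44 and 1.88 as the lowest, median and highest of the 15 poor-raised arrays, against 1.45, 1.78 and 2.07 on the 15 rich-raised arrays. The average difference was -0.31 ± 0.08 log units (SE; 95% interval -0.46 to -0.15; adjusted p = 0.0323 in limma), which is 0.81-fold on a log2 scale and 0.74-fold on a natural-log scale. Of the 5 pairs all were negative, from -0.26 to -0.39, so the size varied less between pairs than it did for Sesn. For ImpL2 the pair furthest apart was P-R-P, with 1.11, 1.58 and 1.40, against P-R-R with 2.07, 1.56 and 1.62, where 1 array of each group lay in the other's range. With poor-raised parents the ImpL2 groups did not overlap, at 1.48, 1.44 and 1.74 in P-P, against 1.78, 1.76 and 1.97 in P-R. F0 males had 1.28, 1.63 and 1.42 in P, against 1.82, 1.57 and 1.78 in R, with 1 poor-raised array above the lowest rich-raised one. The other pairs also overlapped, ImpL2 having 1.18, 1.31 and 1.88 in R-P, against 1.45, 1.81 and 1.88 in R-R, and 1.61, 1.44 and 1.32 in R-R-P, against 1.77, 1.60 and 1.97 in R-R-R.

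**Figure D1:**
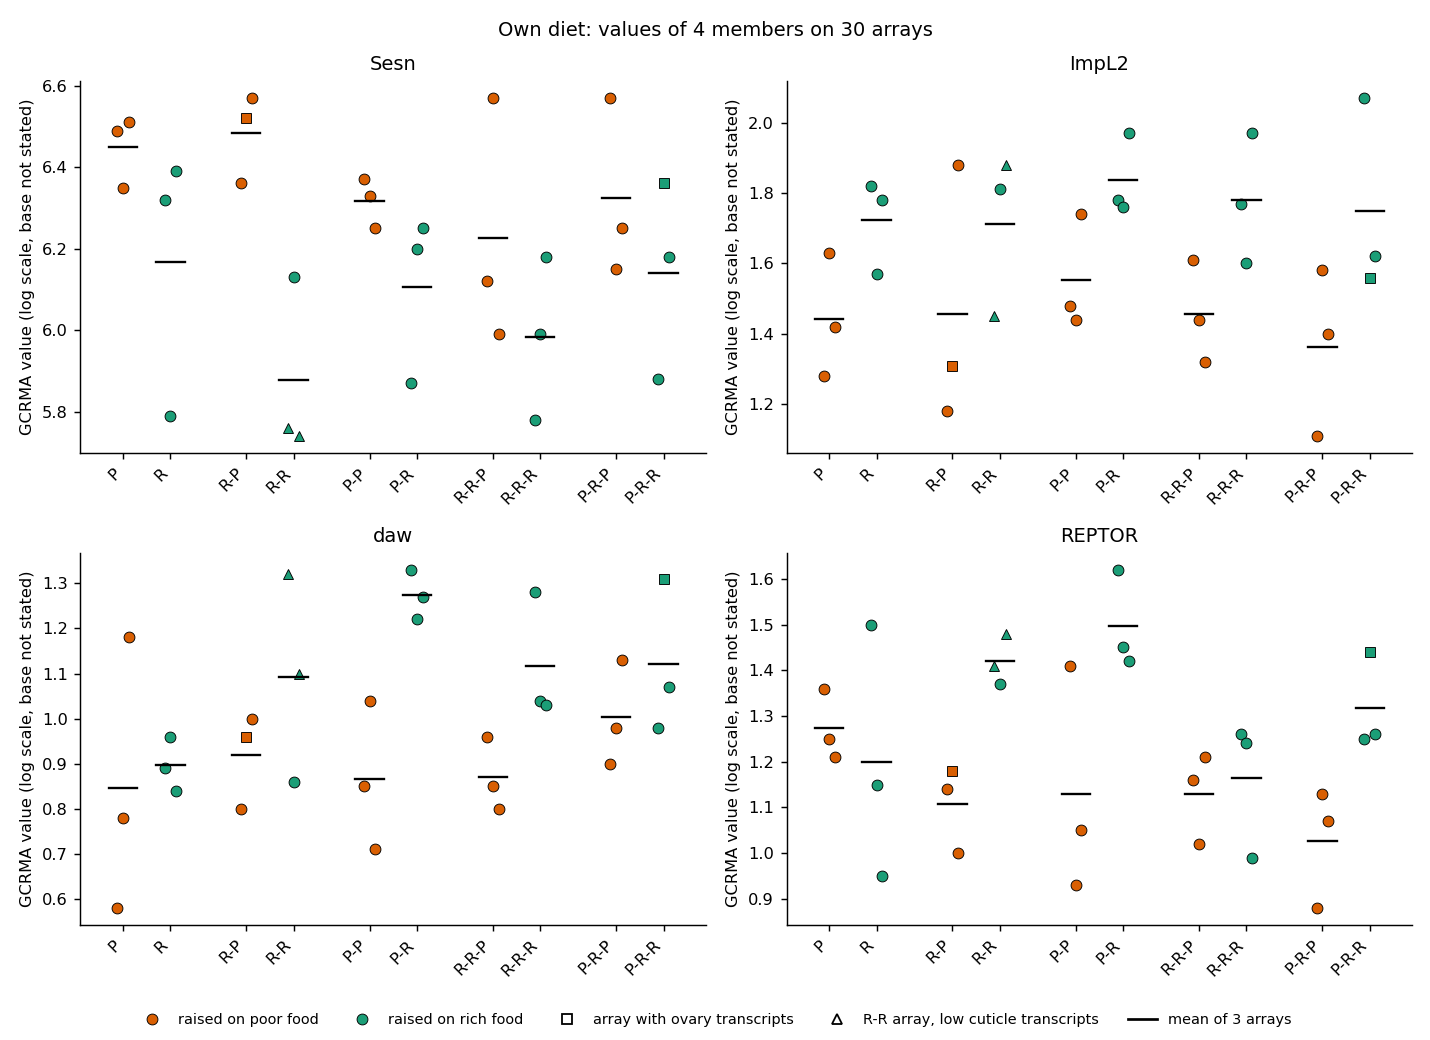
GCRMA values (log scale, base not stated) of Sesn, ImpL2, daw and REPTOR on the 30 arrays, 1 point per array, with the poor-raised group left of the rich-raised group of the same ancestry and a line at the mean of 3 arrays. Sesn means are higher and ImpL2 and daw means lower in the poor-raised group of all 5 pairs, and the lowest Sesn values are the R-R arrays with low cuticle transcripts, at 5.76 and 5.74.

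Some of the tissue marker lists moved with own diet beside these genes. The cuticle list averaged 2.83 to 4.67 on the poor-raised arrays, against 1.75 to 4.15 on the rich-raised arrays, a mean difference of 0.85 log units over the 5 pairs. For the fat body list the ranges were 4.43 to 5.21 on poor-raised and 3.80 to 4.94 on rich-raised arrays (difference 0.30), for the muscle list (7 of 10 genes measured) 6.0 to 6.64 and 5.48 to 6.49 (0.29), and for the Malpighian tubule list (5 of 7) 2.62 to 3.11 and 2.82 to 3.32 (-0.30). The list of insulin-producing and neurosecretory cells (7 of 10, the members Ilp2, Ilp5 and Akh among them) ran from 0.63 to 0.83 on poor-raised and from 0.50 to 0.80 on rich-raised arrays, a difference of 0.01. Differences of the remaining lists were 0.02 for neuron and brain, 0.04 for midgut, 0.02 for testis, 0.09 for accessory gland and -0.06 for ovary and yolk. The lowest rich-raised value of the cuticle, fat body and muscle lists came in each case from R-R replicate 1 or 3. The part of the marker lists in the differences of Sesn and ImpL2 was not tested, apart from leaving arrays out. Without R-R replicates 1 and 3 the difference of Sesn was 0.25 ± 0.08 (adjusted p = 0.21 in limma) and that of ImpL2 -0.33 ± 0.08 (adjusted p = 0.0545), so that 0 members passed. Without all 4 arrays that stand apart they were 0.27 (adjusted p = 0.185) and -0.33 (adjusted p = 0.062). Averaged over the 4 pairs that remain without R-P and R-R, Sesn differed by 0.23 (adjusted p = 0.304) and ImpL2 by -0.32 (adjusted p = 0.0785). Leaving out the 2 arrays with ovary transcripts kept both calls, at 0.32 for Sesn (adjusted p = 0.0313) and -0.31 for ImpL2 (adjusted p = 0.0436). Leaving out 1 array at a time, both calls stood for 10 of the 30 arrays, and 1 or both missed the threshold for 20, with no adjusted p above 0.0654.

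Among the other ligands, the insulin-like and relaxin-like peptides did not pass. Ilp2 and Ilp5, which come from the insulin-producing cells of the brain, differed by 0.05 and 0.05 on average (adjusted p = 0.942 and 0.854 in limma). Ilp7, a peptide of neurons in the ventral nerve cord, had a lowest, median and highest value of 0.10, 0.36 and 0.61 on poor-raised arrays, against 0.21, 0.48 and 0.92 on rich-raised arrays, and differed by -0.11 ± 0.05 (adjusted p = 0.482). Ilp8, the relaxin-like peptide with which larval discs delay metamorphosis, differed by 0.05, and its receptor gene Lgr3 by 0.09 (adjusted p = 0.540). The remaining binding protein and receptor were at -0.11 for InR (adjusted p = 0.655) and at -0.10 for Sdr (adjusted p = 0.607), which encodes a secreted decoy of the insulin receptor.

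The 6 genes of insulin signalling inside the cell spanned the narrowest range of the 6 roles, between -0.03 and 0.06, with adjusted p from 0.878 to 0.993 in limma. They are chico (the receptor substrate), Pdk1 and Akt (kinases), foxo, Sik3 (a kinase that acts on fat storage) and melt, whose product binds Tsc1 and FOXO. Their 95% intervals lay between -0.22 and 0.21. Within the TOR complexes and their regulators, 6 of 7 genes were negative and did not pass, Sesn being the exception. The inhibitors Tsc1 and gig (the fly Tsc2) differed by -0.07 and -0.06, the complex subunits raptor, rictor and Lst8 by -0.08, -0.08 and -0.03, and slif, an amino acid transporter of the fat body, by -0.003. In all, 35 of 35 members had 95% intervals within 0.5 log units of 0, and the outermost bound was that of ImpL2 at -0.46.

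TOR effectors and nutrient hormones held the members next in order after Sesn and ImpL2. REPTOR, a transcription factor that TOR complex 1 holds inactive, had 0.88, 1.14 and 1.41 as the lowest, median and highest poor-raised value, against 0.95, 1.37 and 1.62 on rich-raised arrays. Its difference was -0.19 ± 0.06 (adjusted p = 0.123 in limma), while REPTOR-BP, its binding partner, differed by 0.00 ± 0.09. eIF4E1, the cap-binding factor of translation, was at -0.14 (adjusted p = 0.403), and S6k and Atg1 at -0.08 and -0.07. Dawdle is an activin-like ligand, and its gene daw had 0.58, 0.90 and 1.18 on poor-raised arrays, against 0.84, 1.07 and 1.33 on rich-raised arrays. With all 5 pairs negative, from -0.05 to -0.41, daw averaged -0.20 ± 0.06 and did not pass (adjusted p = 0.112). The same sign in all 5 pairs was found for 3 of 35 members (Sesn, ImpL2 and daw), beside 8.86% of all probe sets.

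CCHa2 is a peptide of fat body and gut, and CCHa2-R is its receptor on brain neurons. CCHa2 had 4.04, 4.38 and 5.0 as the lowest, median and highest poor-raised value, against 3.68, 4.12 and 4.91 on rich-raised arrays, and differed by 0.25 ± 0.10 on average (adjusted p = 0.279 in limma). The highest rich-raised value belonged to R replicate 1, the other 2 R arrays being at 3.84 and 3.75. Without that array the difference of CCHa2 was 0.33 and passed (adjusted p = 0.017). CCHa2-R differed by 0.14 ± 0.05 (adjusted p = 0.20), with 0.23 to 0.68 on poor-raised and 0.11 to 0.59 on rich-raised arrays. Akh and AkhR, adipokinetic hormone and its receptor, were at -0.03 and 0.07, and upd2 at -0.05. Gbp1 and Gbp2, neighbouring genes in the RefSeq annotation that encode growth-blocking peptides, were at 0.09 and -0.10, and sNPF, a neuropeptide that promotes feeding, at -0.002.

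**Figure D2:**
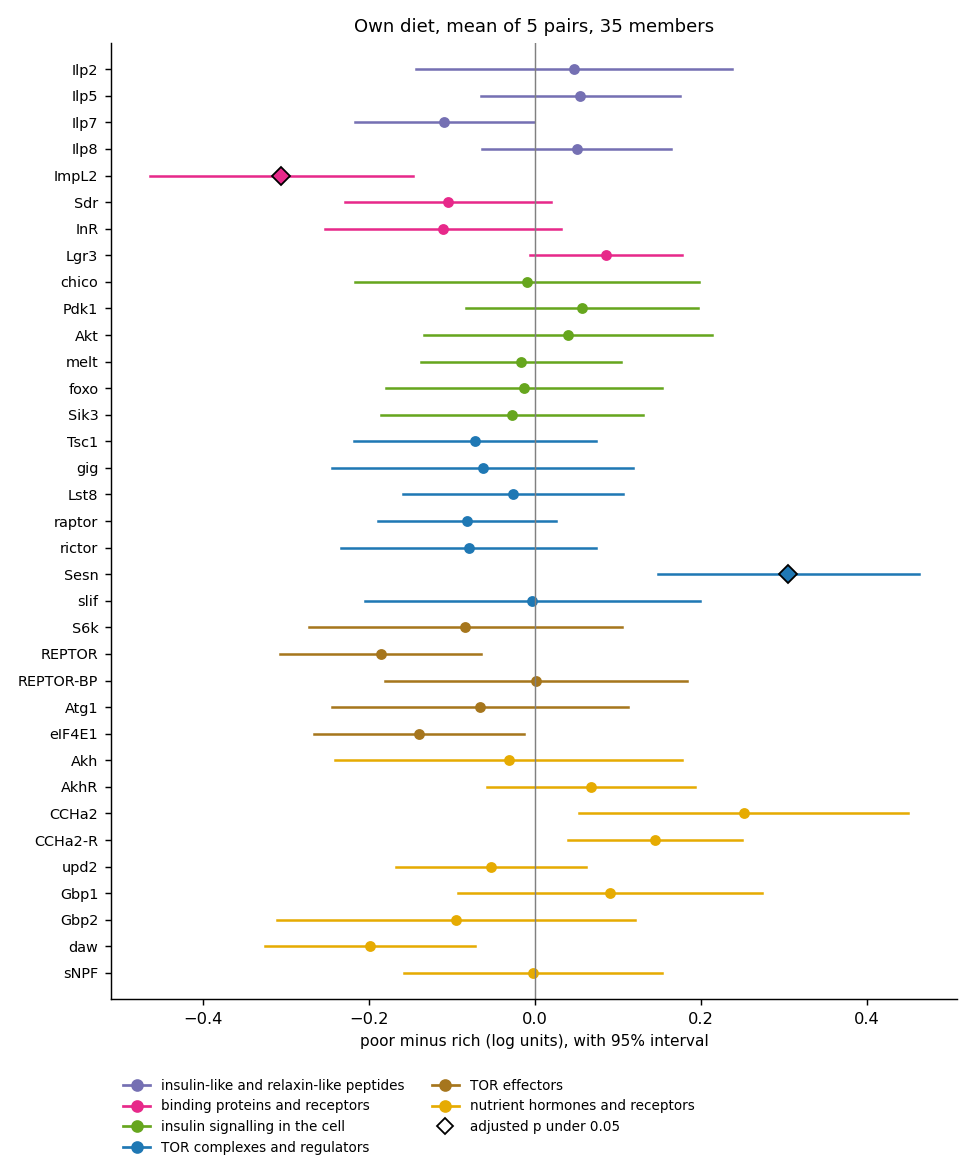
Difference of each of the 35 members with own diet (poor minus rich, log units, mean of the 5 pairs), ordered and coloured by role, with 95% intervals from limma. The 2 diamonds, Sesn at 0.31 and ImpL2 at -0.31, passed an adjusted p under 0.05, and the intracellular insulin signalling genes lie between -0.03 and 0.06.

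Within single pairs the same test rests on 3 arrays against 3, and the 95% interval of a median member reached 0.34 to each side, against 0.15 for the average of the 5 pairs. In limma 0 of 35 members passed in any of the 5. The share of all probe sets that passed was 0.183% in F0, 0.601% in F1 of rich-raised parents, 0.0523% in F1 of poor-raised parents, 0.0588% in F2 of rich-raised grandparents and 0.0719% in F2 of poor-raised grandparents. At an unadjusted p under 0.05 the members counted 2, 4, 5, 3 and 8 in that order, beside 6.25%, 8.93%, 4.38%, 7.75% and 8.82% of all probe sets. The median over members lay between -0.05 and 0.03, and over all probe sets between -0.02 and 0.02. The 3 members with the lowest p of each pair are described next, none of which passed.

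In F0 these were Gbp1, CCHa2-R and CCHa2. Gbp1 had 1.96, 2.26 and 2.36 in P, against 1.97, 1.26 and 1.62 in R, with R replicate 1 inside the poor-raised range, and differed by 0.58 ± 0.20 (adjusted p = 0.435 in limma). Gbp2, its neighbour, differed by 0.25. CCHa2-R had 0.68, 0.32 and 0.39 in P, against 0.32, 0.24 and 0.11 in R (0.24 ± 0.11, adjusted p = 0.78), the groups meeting at 0.32. Its ligand gene CCHa2 had 4.32, 4.38 and 5.0 in P, against 4.91, 3.84 and 3.75 in R (0.40 ± 0.22, adjusted p = 0.832), which overlap. Single arrays moved these differences: that of CCHa2 ran from 0.18 without P replicate 3 to 0.77 without R replicate 1, and that of CCHa2-R was 0.13 without P replicate 1.

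With rich-raised parents the pair was R-P against R-R. Sesn, given above, differed by 0.61 ± 0.17 (adjusted p = 0.134 in limma), and without the R-R arrays with low cuticle transcripts by 0.35 ± 0.24 (adjusted p = 0.998). Gbp2 had 5.29, 5.48 and 5.36 in R-P, against 6.29, 5.67 and 5.94 in R-R, a difference of -0.59 ± 0.23 (adjusted p = 0.421). REPTOR had 1.14, 1.18 and 1.0 in R-P, against 1.41, 1.37 and 1.48 in R-R, a difference of -0.31 ± 0.13 (adjusted p = 0.459). For all 3 the groups did not overlap. Without the same R-R arrays, which leaves R-R replicate 2 alone with a spread taken from the other groups, Gbp2 differed by -0.29 and REPTOR by -0.26 (adjusted p = 0.998 for both). With poor-raised parents, REPTOR had 1.41, 0.93 and 1.05 in P-P, against 1.62, 1.45 and 1.42 in P-R (-0.37 ± 0.13, adjusted p = 0.87), the nearest arrays being at 1.41 and 1.42. Dawdle's gene daw had 0.85, 1.04 and 0.71 in P-P, against 1.33, 1.22 and 1.27 in P-R (-0.41 ± 0.14, adjusted p = 0.745). Ilp7 had 0.41, 0.21 and 0.10 in P-P, against 0.51, 0.53 and 0.55 in P-R (-0.29 ± 0.12, adjusted p = 0.998). The P-R arrays of daw and Ilp7 lay close together, and neither gene's groups overlapped.

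In F2 of rich-raised grandparents, Ilp7 had 0.33, 0.37 and 0.16 in R-R-P, against 0.54, 0.85 and 0.92 in R-R-R. The groups did not overlap, and the difference of -0.48 ± 0.12 was the lowest unadjusted p of any member in a single pair (adjusted p = 0.134 in limma). Without R-R-R replicate 1, the lowest array of its group, it was -0.60 and passed (adjusted p = 0.0403). AkhR had 0.86, 0.73 and 0.81 in R-R-P, against 0.53, 0.48 and 0.49 in R-R-R (0.30 ± 0.14, adjusted p = 0.598). Sik3 had 1.21, 0.85 and 0.91 in R-R-P, against 0.79, 0.22 and 0.83 in R-R-R (0.38 ± 0.17, adjusted p = 0.598). For both genes the 3 R-R-P arrays lay above the 3 R-R-R arrays, with 0.85 against 0.83 at the nearest for Sik3. Without R-R-R replicate 2, at 0.22, the difference of Sik3 was 0.18.

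In F2 of poor-raised grandparents, the TOR complex 2 subunit gene rictor had 0.73, 0.57 and 0.74 in P-R-P, against 0.87, 1.45 and 1.03 in P-R-R (-0.44 ± 0.17, adjusted p = 0.461 in limma). eIF4E1 had 3.20, 3.45 and 3.49 in P-R-P, against 3.62, 4.19 and 3.57 in P-R-R (-0.41 ± 0.14, adjusted p = 0.402). In both genes the highest value, 1.45 and 4.19, was that of P-R-R replicate 2, an array with ovary transcripts. Without the 2 ovary arrays the differences were -0.27 for rictor (adjusted p = 0.89) and -0.21 for eIF4E1 (adjusted p = 0.87). CCHa2-R had 0.67, 0.55 and 0.62 in P-R-P, against 0.25, 0.32 and 0.40 in P-R-R, without overlap, and differed by 0.29 ± 0.11 (adjusted p = 0.475).

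**Figure D3:**
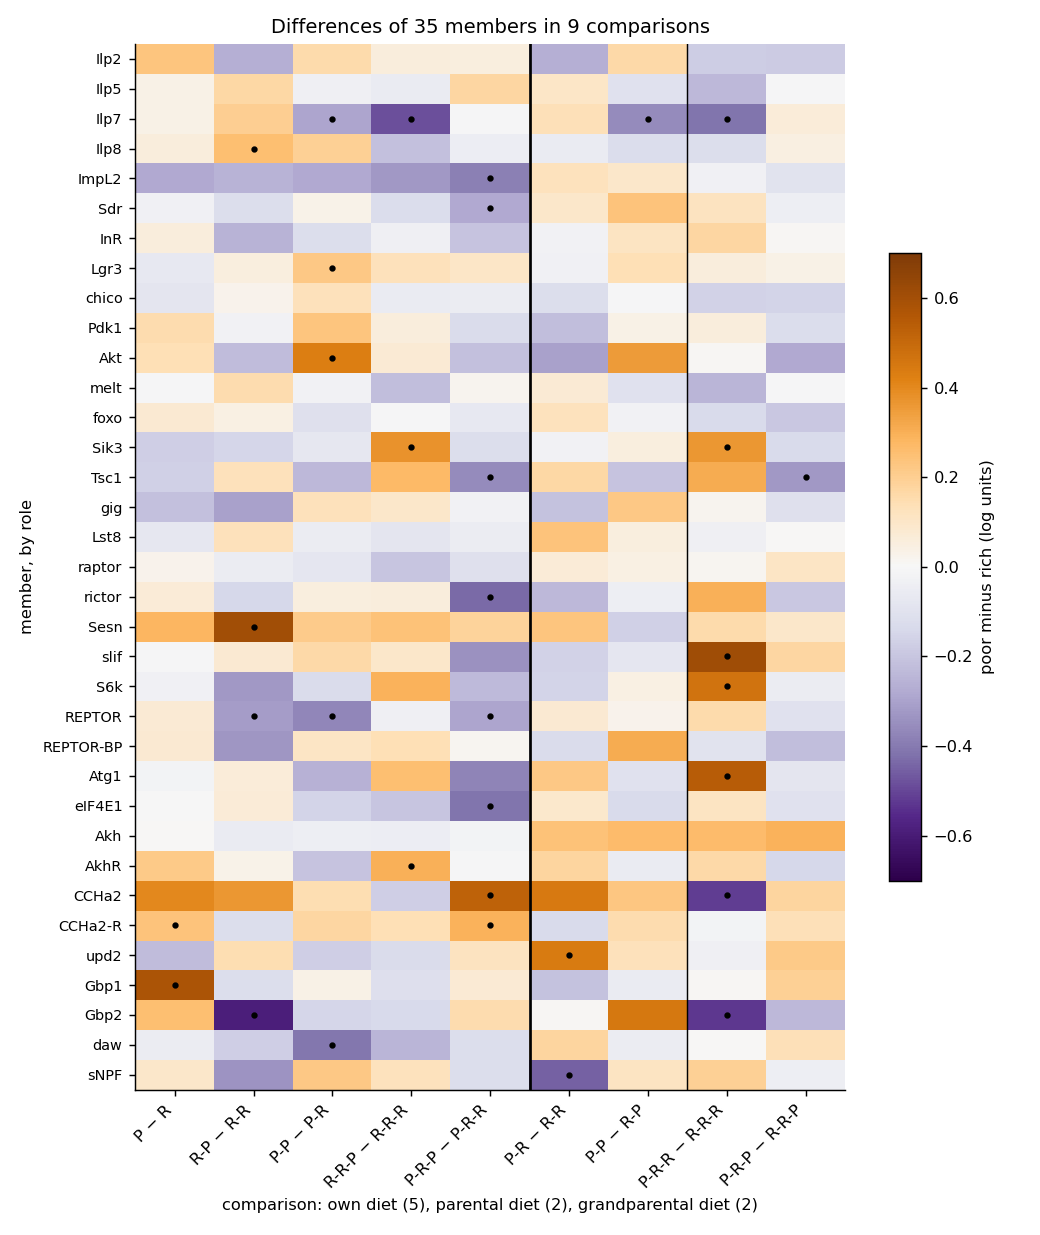
Differences (poor minus rich, log units, colour scale) of the 35 members, ordered by role, in the 5 own-diet pairs, the 2 parental and the 2 grandparental comparisons. A dot marks an unadjusted p under 0.05 in limma, and no cell passed after adjustment. Along the rows, ImpL2 and daw are negative and Sesn positive in the 5 own-diet columns, while Ilp7 and CCHa2 take both signs.

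Parental diet was compared between F1 males whose parents had developed on poor food and F1 males of rich-raised parents, at the same own food. In limma 0 of 35 members passed on average, in rich-raised or in poor-raised F1 males, where 0.0196%, 0.0523% and 0.0131% of all probe sets did. At an unadjusted p under 0.05 there were 2, 2 and 1 members, beside 6.77%, 5.49% and 6.58% of all probe sets. The median difference on average was 0.03 over the members (21 above 0, 14 below) and 0.00 over all probe sets. The 95% interval of a median member for this average reached 0.24 to each side, and over the members the reach ran from 0.15 to 0.34.

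The fat-body cytokine gene upd2, whose product is the fly's leptin-like signal to the brain, had the lowest p for parental diet. Its values were 0.41, 0.63 and 0.70 in P-R, against 0.17, 0.03 and 0.22 in R-R, a difference of 0.44 ± 0.12 (adjusted p = 0.451 in limma). In poor-raised males they were 0.42, 0.31 and 0.50 in P-P, against 0.36, 0.23 and 0.26 in R-P. The groups did not overlap in rich-raised males and did overlap in poor-raised ones. On average the difference was 0.28 ± 0.09 (adjusted p = 0.39). Without the R-R arrays with low cuticle transcripts, R-R replicate 2 (0.03) remained alone, and the difference of upd2 in rich-raised males was 0.55, with a spread taken from the other groups (adjusted p = 0.997). These values all lie below the array medians.

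CCHa2 had 4.26, 4.44 and 4.12 in P-R, against 3.75, 4.06 and 3.68 in R-R, and 4.38, 4.29 and 4.59 in P-P, against 4.04, 4.13 and 4.41 in R-P. On average it differed by 0.34 ± 0.15 (adjusted p = 0.702 in limma), and by 0.22 ± 0.19 without the R-R arrays with low cuticle transcripts (adjusted p = 0.969). Sdr had 0.52, 0.60 and 0.43 in P-R, against 0.36, 0.39 and 0.52 in R-R, and 0.46, 0.56 and 0.62 in P-P, against 0.15, 0.42 and 0.35 in R-P. Its average difference was 0.17 ± 0.10 (adjusted p = 0.797). For sNPF the comparison was 0.84, 0.77 and 0.60 in P-R, against 0.78, 1.64 and 1.14 in R-R, with overlap and a wide spread in R-R (-0.45 ± 0.17, adjusted p = 0.762). The difference rested on R-R replicate 2, at 1.64: without it sNPF differed by -0.22, and without the other 2 R-R arrays, which leaves it alone, by -0.90 (adjusted p = 0.54).

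In poor-raised F1 males Ilp7 had 0.41, 0.21 and 0.10 in P-P, against 0.58, 0.61 and 0.60 in R-P. The R-P arrays lay close together and above all P-P arrays, and the difference was -0.36 ± 0.12 (adjusted p = 0.556 in limma). Gbp2 had 5.61, 5.92 and 5.95 in P-P, against 5.29, 5.48 and 5.36 in R-P (0.45 ± 0.23, adjusted p = 0.797), without overlap. Akt had 3.55, 4.08 and 3.71 in P-P, against 3.17, 3.51 and 3.60 in R-P (0.35 ± 0.19, adjusted p = 0.814), with overlap. The Akt difference was 0.20 without P-P replicate 2 and 0.23 without R-P replicate 1. The P-P and R-P arrays also enter the own-diet pairs above, so these values are not separate evidence.

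Grandparental diet was compared between F2 males of poor-raised and of rich-raised grandparents. In limma 0 of 35 members passed on average, in rich-raised or in poor-raised F2 males, and 0% of all probe sets did in each of the 3. At an unadjusted p under 0.05 the members counted 3, 7 and 1, beside 5.51%, 8.57% and 5.13% of all probe sets. The median difference on average was 0.01 over the members and -0.01 over all probe sets.

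In rich-raised F2 males Ilp7 had 0.28, 0.31 and 0.48 in P-R-R, against 0.54, 0.85 and 0.92 in R-R-R. The groups did not overlap and the difference was -0.41 ± 0.12 (adjusted p = 0.272 in limma). In poor-raised F2 males it had 0.43, 0.26 and 0.36 in P-R-P, against 0.33, 0.37 and 0.16 in R-R-P, which overlap, and the average over both was -0.18 ± 0.08 (adjusted p = 0.888). Atg1, the kinase that starts autophagy, had 2.94, 2.83 and 2.63 in P-R-R, against 2.04, 2.50 and 2.23 in R-R-R (0.54 ± 0.19, adjusted p = 0.452), without overlap. In poor-raised males Atg1 had 2.58, 1.80 and 2.90 in P-R-P, against 2.62, 2.40 and 2.52 in R-R-P, a difference of -0.09, which was 0.23 without P-R-P replicate 2 and -0.32 without P-R-P replicate 3.

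The transporter gene slif had 0.58, 1.97 and 0.97 in P-R-R, against 0.44, 0.56 and 0.69 in R-R-R, a difference of 0.61 ± 0.22 (adjusted p = 0.452 in limma). It had 0.56, 0.97 and 0.96 in P-R-P, against 0.59, 0.52 and 0.87 in R-R-P, and averaged 0.39 ± 0.16 (adjusted p = 0.808). The value of 1.97 is that of P-R-R replicate 2, which holds ovary transcripts. Without the 2 ovary arrays the difference of slif was 0.21 ± 0.15 in rich-raised males (adjusted p = 0.847) and 0.19 ± 0.10 on average (adjusted p = 0.883). Gbp2 had 5.71, 5.85 and 5.57 in P-R-R, against 5.89, 6.18 and 6.64 in R-R-R, and 6.37, 5.48 and 5.73 in P-R-P, against 6.12, 5.82 and 6.35 in R-R-P. Its average difference was -0.38 ± 0.17 (adjusted p = 0.863), with overlap among the poor-raised males alone.

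In poor-raised F2 males Tsc1, an inhibitor of TOR complex 1, had 0.66, 0.51 and 0.71 in P-R-P, against 1.07, 1.05 and 0.74 in R-R-P (-0.33 ± 0.16, adjusted p = 0.973 in limma). The groups did not overlap, with 0.71 against 0.74 at the nearest. For upd2 the values were 0.25, 0.64 and 0.19 in P-R-P, against 0.15, 0.11 and 0.18 in R-R-P (0.21 ± 0.12, adjusted p = 0.979), with 0.19 against 0.18 at the nearest, and the difference of upd2 was 0.07 without P-R-P replicate 2. Akt had 3.61, 3.22 and 3.41 in P-R-P, against 3.96, 3.63 and 3.50 in R-R-P (-0.28 ± 0.19, adjusted p = 0.98), with overlap, and differed by -0.15 without R-R-P replicate 1 and by -0.19 without P-R-P replicate 2.

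**Figure D4:**
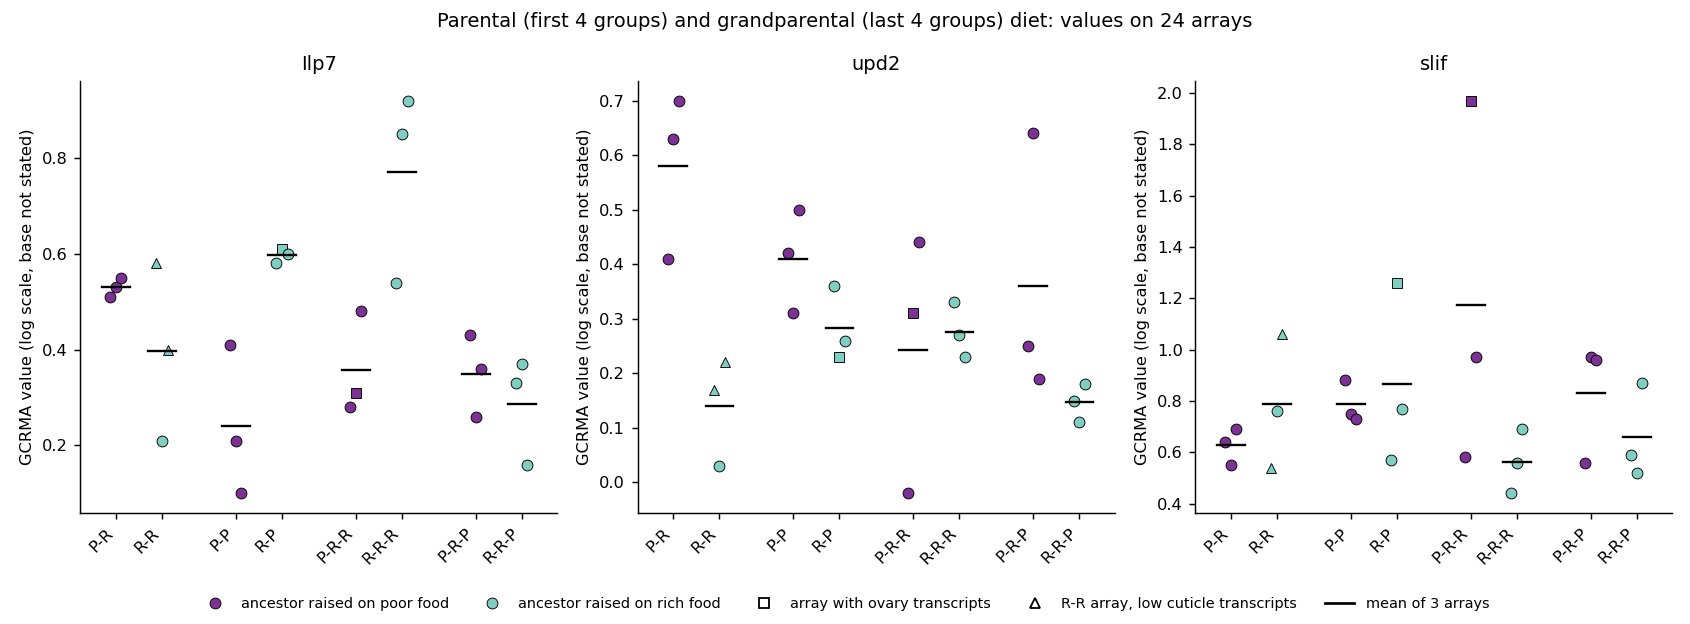
GCRMA values (log scale, base not stated) of Ilp7, upd2 and slif on the F1 and F2 arrays, with the group of poor-raised ancestors left of the group of rich-raised ancestors at the same own food and a line at the mean of 3 arrays. The 3 upd2 values of P-R lie above those of R-R, the 3 Ilp7 values of P-R-R lie below those of R-R-R, and the highest slif value, 1.97, is an array with ovary transcripts.

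**Figure D5:**
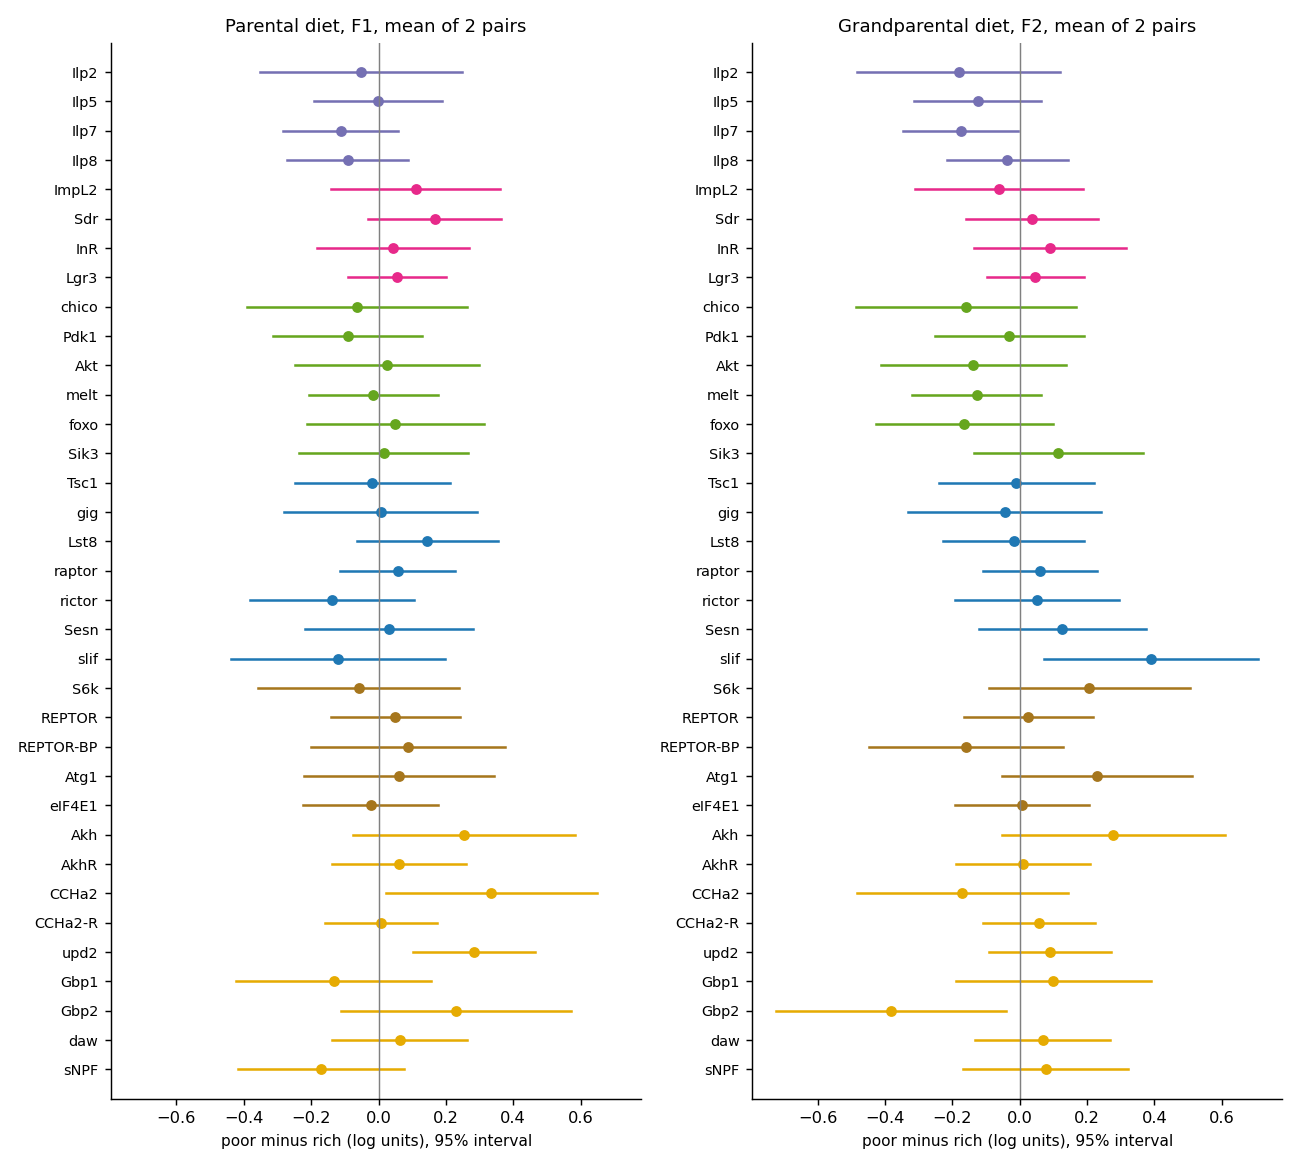
Difference of each of the 35 members (poor minus rich, log units) with parental diet in F1 males on the left and grandparental diet in F2 males on the right, each the mean of 2 pairs, with 95% intervals from limma and the colours of the roles as for own diet. No member passed; upd2 at 0.28 and slif at 0.39 had the lowest p of each panel.

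An interaction is the own-diet difference in flies of poor-raised ancestors less the own-diet difference in flies of rich-raised ancestors. In limma 0 of 35 members passed in F1 or in F2, beside 0.00653% and 0% of all probe sets. At an unadjusted p under 0.05 there were 3 and 5 members, beside 4.87% and 7.64% of all probe sets. Ilp7 had the lowest p of the members in both generations. Its own-diet difference was -0.29 with poor-raised parents and 0.20 with rich-raised parents (interaction -0.49 ± 0.17, adjusted p = 0.859). Without the R-R arrays with low cuticle transcripts, which leaves R-R replicate 2 alone, the own-diet difference of Ilp7 with rich-raised parents was 0.39 and the interaction -0.68 (adjusted p = 0.923), and without R-R replicate 2 that own-diet difference was 0.11. In F2 it was -0.01 with poor-raised grandparents and -0.48 with rich-raised grandparents (interaction 0.48 ± 0.17, adjusted p = 0.553). The sign of the interaction thus differed between the generations. The R-R-R arrays of Ilp7 also enter its own-diet and grandparental differences above and the F tests below. These results are therefore not separate evidence.

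Of the other members, Akt differed with own diet by 0.43 with poor-raised parents and by -0.23 with rich-raised parents (interaction 0.66 ± 0.27, adjusted p = 0.97 in limma). For sNPF the differences were 0.22 and -0.34 (0.56 ± 0.24, adjusted p = 0.984). The sNPF interaction was 0.33 without R-R replicate 2, and 1.01 with that array alone in R-R (adjusted p = 0.822). In F2 Tsc1 differed with own diet by -0.36 with poor-raised and by 0.27 with rich-raised grandparents (-0.63 ± 0.22, adjusted p = 0.553). Atg1 differed by -0.37 and 0.26 in the same order (-0.63 ± 0.27, adjusted p = 0.626). Without P-R-P replicate 2, at 1.80, the Atg1 interaction was -0.32 and its own-diet difference with poor-raised grandparents -0.06, and that own-diet difference was -0.61 without P-R-P replicate 3. In these 4 genes the sign of the own-diet difference differed with ancestry, and none passed.

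Across all 10 groups, the F test of limma called 0 of 35 members, beside 0.882% of all probe sets. At an unadjusted p under 0.05 it held 5 members, beside 9.25%. Ilp7 came first among the members (F = 4.07, adjusted p = 0.139), then CCHa2 (F = 2.66, adjusted p = 0.429) and Sesn (F = 2.56, adjusted p = 0.458). The group means of Ilp7 ran from 0.24 ± 0.16 in P-P to 0.77 ± 0.20 in R-R-R (SD, n = 3 each), and those of CCHa2 from 3.83 ± 0.20 in R-R to 4.58 ± 0.26 in P-R-P. Without R replicate 1, CCHa2 passed this test (F = 5.98, adjusted p = 0.0279).

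The F test of whether own diet acted differently among the 5 pairs called 0 members, beside 0.0392% of all probe sets, and 2 members against 6% of all probe sets had an unadjusted p under 0.05. Ilp7 (F = 5.42, adjusted p = 0.623) and Tsc1 (F = 2.78, adjusted p = 0.821) came first, then Ilp8 (F = 2.31, adjusted p = 0.856). Ilp8 had 0.49, 0.85 and 0.33 in R-P, against 0.30, 0.32 and 0.28 in R-R, and 0.22, 0.26 and 0.21 in R-R-P, against 0.56, 0.38 and 0.39 in R-R-R. The groups did not overlap in either pair and lay in opposite directions. The value of 0.85 is that of R-P replicate 2, an array with ovary transcripts.

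Flies with rich food alone in their history were compared over the generations R, R-R and R-R-R. The F test called 0 members, beside 0.00653% of all probe sets, and 6 members against 7.48% of all probe sets had an unadjusted p under 0.05. Ilp7 had 0.33, 0.24 and 0.29 in R, 0.58, 0.21 and 0.40 in R-R, and 0.54, 0.85 and 0.92 in R-R-R (F = 9.31, adjusted p = 0.347 in limma). CCHa2 had 4.91, 3.84 and 3.75 in R, 3.75, 4.06 and 3.68 in R-R, and 4.54, 4.55 and 4.63 in R-R-R (F = 5.96, adjusted p = 0.482). Sik3 had 1.29, 0.91 and 1.03 in R, 1.05, 0.88 and 1.19 in R-R, and 0.79, 0.22 and 0.83 in R-R-R (F = 4.5, adjusted p = 0.577). The R-R-R mean lay furthest from the other generations in all 3 genes, above them for Ilp7 and CCHa2 and below them for Sik3. It overlapped R-R through R-R replicate 1 for Ilp7, and R through R replicate 1 for CCHa2. Generation cannot be told apart from the time of rearing or of array processing.

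Other genes of the pathway were read from lists of 118 genes, of which 90 had a probe set of their own. In limma 0 of the 90 passed in any of the 14 contrasts or 3 F tests. With own diet on average 8 of 90 had an unadjusted p under 0.05, beside the 10.2% of all probe sets given above, and the median difference was -0.03. By role, an unadjusted p under 0.05 was reached by 3 of 11 other hormones, 1 of 15 receptors, 0 of 10 genes of insulin signalling, 1 of 19 TOR and amino acid sensing genes, 4 of 29 targets and outputs, and 0 of 6 relatives of eIF4E1. With parental diet 6 of 90 had an unadjusted p under 0.05, beside the 6.77% of all probe sets, and with grandparental diet 6 of 90, beside 5.51%, so both counts lay near the background.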

How the data were processed

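Total RNA of adult virgin males was labelled with biotin and hybridised to Affymetrix Drosophila Gene 1.0 arrays. The authors made the values by GCRMA, per the submitters' processing notes, which corrects background and normalizes between arrays. The deposited table holds 1 value per probe set and array, from -0.56 to 10.78, and was taken as log2, the base being unstated. Symbols came from the array annotation, in which 13441 of 15309 probe sets have 1 symbol, 555 several and 1313 none; the members use those with 1.

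Linear models with moderated variances (limma 3.58.1, run under R 4.3.3) were fitted to every probe set on the 10 group means, with 20 residual degrees of freedom, for 14 contrasts and 3 F tests. P-values were adjusted by Benjamini-Hochberg over all 15309 probe sets, and an adjusted p under 0.05 counted as passing. The fit was tested on simulated data. The members and the lists of other genes and tissue markers were chosen with earlier results of these data known.

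All 35 members are accounted for. Values per array are given for members that passed a comparison and, where none did in a diet comparison, for the 3 with the lowest p. The interactions and F tests are in part described by differences, group means or F alone. Genes outside the 35 are named only if they passed. Alternatives were quantile normalization, centring of arrays, a filter on dim probe sets, variance trend, robust fit, array weights, a replicate block, the groups of a contrast alone, the average over 4 pairs, and leaving out arrays.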

Additional observations from a re-analysis of the deposited data

How the results depend on the processing

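The number of members that passed with own diet, 2 in the reported analysis, was 0 without R-R replicates 1 and 3, 0 without the 4 arrays that stand apart (an alternative chosen after seeing the data) and 0 over the 4 pairs that remain without R-P and R-R. With single arrays or a replicate number left out the count ran from 0 to 2. Sesn then ran from 0.27 to 0.33 over the 30 single arrays (adjusted p 0.0163 to 0.0632 in limma) and missed the threshold for 12 of them, and ImpL2 ran from -0.35 to -0.27 (0.00603 to 0.0654) and missed it for 15. Sesn missed it without R 2, R-R 1, R-R 3, R-P 3, R-R-R 1, R-R-P 2, P 3, P-R 1, P-P 1, P-P 2, P-R-R 1 or P-R-P 1 (group and replicate). ImpL2 missed it without R 1, R 3, R-R 3, R-P 1, R-P 2, R-R-R 3, R-R-P 2, R-R-P 3, P 1, P 3, P-R 3, P-P 1, P-P 2, P-R-R 1 or P-R-P 1. Without a replicate number, Sesn ran from 0.23 to 0.38 (adjusted p 0.0647 to 0.48) and ImpL2 from -0.37 to -0.24 (0.0963 to 0.381), so these tests on 20 arrays passed neither. Both calls were kept under the dim filter, quantile normalization, centring, variance trend, robust fit, array weights and omission of the ovary arrays. The dim filter left out Ilp7, CCHa2-R, slif, upd2 and Sdr, among others, so those genes were not tested under it. The own-diet average uses all 10 groups, so a fit of its groups alone repeats the main fit and is no check of these calls. Of 135 same-numbered pairs of samples from different groups, 8 had deviations correlated over 0.1 (median 0.004, highest 0.63). The labels do not tell whether replicate numbers pair samples, and these correlations cannot settle it. With the replicate block 2 members passed in limma, Sesn (0.31, adjusted p = 0.038) and ImpL2 (-0.31, adjusted p = 0.032). With own diet in F2 of rich-raised grandparents the count ran from 0 to 1 on leaving out arrays (Ilp7 without R-R-R replicate 1), and over the 10 groups from 0 to 1 (CCHa2 without R replicate 1). In the average over pairs daw passed without P replicate 3 (-0.23, adjusted p = 0.0298) and REPTOR without P-P replicate 1 (-0.21, adjusted p = 0.0464). In the other comparisons 0 members passed under the alternatives run, and no passing member changed sign. The number of all probe sets that passed with own diet was 281, and ran from 150 to 334 over the settings that left out no single array or replicate number, from 234 to 345 without single arrays and from 125 to 155 without a replicate number.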
